A study of Mus musculus with 28 samples.

Results

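The replication-dependent histone genes of the mouse were examined for open chromatin in purified Müller cells, the main glial cells of the retina. Every protein-coding gene of the GENCODE M21 annotation (mm10) whose name starts with Hist1h, Hist2h, Hist3h or Hist4h was taken, which gave 67 of 21938 coding genes. They comprise 6 genes for the linker histone H1, 18 for H2A, 18 for H2B, 12 for H3 and 13 for H4. At an age of 6 months, the study compared Müller cells of control animals (genotype labelled WT, where wild type and db/+ mice both served as controls) with those of db/db animals. The latter are on the BKS background, are homozygous for a Lepr mutation that disrupts leptin signalling in the whole animal, and become obese and diabetic, and both sexes were used. Cells were sorted with magnetic beads as CD29-positive after removal of CD11b- and CD31-positive cells. ATAC-seq, in which a transposase cuts open chromatin, was run by the omni-ATAC protocol, and 1 list of accessible regions per genotype, attached to replicate 1 of each, was analysed here. There is thus no replicate check, no test between genotypes is given, and a difference between the lists cannot be told apart from a difference between libraries.

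These genes supply the bulk of the histones that package new DNA. They are switched on together when a cell copies its genome in S phase, under the coactivator NPAT, and their transcripts are not polyadenylated but end in a short stem-loop that is bound by SLBP. Most H2A and H2B genes stand head to head and share the promoter between them. Müller cells of the adult retina seldom divide.

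The list labels were compared with marker genes of the retina, where a gene counted as open when a region lay on it or within 1 kb. By this rule 66.4% of all coding genes were open in the control and 69.7% in the db/db list. Of 10 markers of Müller cells, such as Glul, Vim and Dkk3, all were open in both lists, 9 of them with a region within 1 kb of the 5′ end. Of 6 microglial markers 3 were open in each list, and of 6 vascular markers 3 were open in the control and 4 in the db/db list. Only 1 microglial and 2 vascular markers had a region within 1 kb of the 5′ end in each list. All 10 rod photoreceptor markers were open in the control list and 9 in the db/db list, with a region within 1 kb of the 5′ end at 10 and 6 of them, so photoreceptor chromatin was visible in both lists and less so in the db/db one. Its part in the results on histone genes was not tested. Each list holds, per region, a signal that is a fold enrichment and a −log10 p value. Since the scaling of these values is not stated, a region is described by its percentile, its rank from 0 to 100 among all regions of its own list, 46189 in the control and 64883 in the db/db list after overlapping rows had been merged.

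The promoter sequences show what the members share apart from their names. RefSeq promoters (build GRCm38.p6, 250 bases before to 50 after the gene start) could be matched to 62 of the 67 genes. Motifs known from histone promoters were searched on both strands, with the share of all 21263 coding promoters of the same length as background. The TATA box, which near the gene start is a site where the basal transcription machinery assembles, was spelled TATAAA. The site of the factor NFY, which many promoters without a cell cycle role also carry, was spelled CCAAT. For the octamer, which OCT1 binds, the search used ATTTGCAT. The sites of the E2F factors, which act at the start of S phase, were spelled TTTGGCGC or, with another centre, TTTCGCGC. The AC box named after H1 genes was spelled AAACACA. The string bound by HINFP at H4 genes was GTCCGC. Where 2 matches overlap, both are capitalised. Below, matches are in capitals in 6 promoters, read 5′ to 3′ on the strand of the gene. The first is from the most accessible pair of H2A and H2B genes and the second from a testis-specific pair that had no accessible region. An open and a closed H1 gene, the most accessible H4 gene and the H3 promoter with the weakest region in the control list follow.
Hist1h2bk (chr13:22035571-22035870, plus strand): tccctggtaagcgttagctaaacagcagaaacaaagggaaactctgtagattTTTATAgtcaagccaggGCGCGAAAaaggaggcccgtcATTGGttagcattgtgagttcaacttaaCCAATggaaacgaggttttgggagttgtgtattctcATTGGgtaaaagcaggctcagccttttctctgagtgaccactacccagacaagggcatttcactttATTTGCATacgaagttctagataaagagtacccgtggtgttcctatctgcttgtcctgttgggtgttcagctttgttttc
Hist1h2ba (chr13:23934107-23934406, minus strand): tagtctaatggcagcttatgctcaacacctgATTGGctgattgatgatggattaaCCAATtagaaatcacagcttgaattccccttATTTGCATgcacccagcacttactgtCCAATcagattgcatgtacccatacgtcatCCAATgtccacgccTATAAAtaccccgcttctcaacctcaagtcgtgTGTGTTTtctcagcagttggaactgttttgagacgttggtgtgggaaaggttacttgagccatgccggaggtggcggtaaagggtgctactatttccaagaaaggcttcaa
Hist1h1c (chr13:23738557-23738856, plus strand): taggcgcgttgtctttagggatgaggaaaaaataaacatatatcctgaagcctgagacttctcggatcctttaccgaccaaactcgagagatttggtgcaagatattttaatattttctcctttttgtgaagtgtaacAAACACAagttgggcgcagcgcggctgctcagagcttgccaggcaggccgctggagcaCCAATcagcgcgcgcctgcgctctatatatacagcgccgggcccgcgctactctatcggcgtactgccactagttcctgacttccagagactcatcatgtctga
Hist1h1t (chr13:23695561-23695860, plus strand): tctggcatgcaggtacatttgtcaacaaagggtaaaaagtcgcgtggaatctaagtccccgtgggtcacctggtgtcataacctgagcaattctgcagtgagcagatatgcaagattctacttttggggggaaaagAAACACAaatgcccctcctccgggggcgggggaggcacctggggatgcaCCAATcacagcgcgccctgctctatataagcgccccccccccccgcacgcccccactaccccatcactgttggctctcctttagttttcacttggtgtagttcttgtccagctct
Hist1h4c (chr13:23698409-23698708, minus strand): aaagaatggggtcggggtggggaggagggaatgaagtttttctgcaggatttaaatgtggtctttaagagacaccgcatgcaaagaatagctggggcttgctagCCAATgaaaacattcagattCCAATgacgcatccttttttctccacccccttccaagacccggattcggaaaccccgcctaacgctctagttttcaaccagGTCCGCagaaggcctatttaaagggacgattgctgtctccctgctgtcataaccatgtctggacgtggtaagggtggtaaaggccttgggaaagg
Hist1h3d (chr13:23575513-23575812, plus strand): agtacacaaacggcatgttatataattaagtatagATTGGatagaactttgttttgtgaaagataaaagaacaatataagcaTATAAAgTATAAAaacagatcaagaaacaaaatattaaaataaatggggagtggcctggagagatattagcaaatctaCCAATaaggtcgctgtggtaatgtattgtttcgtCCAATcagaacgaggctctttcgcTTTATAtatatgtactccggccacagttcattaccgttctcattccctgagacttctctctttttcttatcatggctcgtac

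The motifs divided the genes by histone type. The CCAAT box was present in all 6 H1, all 18 H2A, all 16 H2B and all 10 H3 promoters that were matched, and in only 3 of 12 H4 promoters, against 38.2% of all coding promoters. H2A and H2B promoters held 2 to 5 copies each, with a median of 3. The octamer was found in 7 of 18 H2A and 7 of 16 H2B promoters, in 0 of the H1, H3 and H4 promoters and in 1.66% of all coding promoters. An E2F site was likewise limited to H2A (5 of 18) and H2B (4 of 16) among the members, against 1.05% of all coding promoters. In both promoters of a pair the same copy is often counted, because their windows overlap. The AC box was found in 5 of 6 H1 promoters (6.15% of all coding promoters), each time starting 112 to 122 bases before the gene start. It was also present in 2 of 18 H2A and 2 of 16 H2B promoters. The GTCCGC string was found in 9 of 12 H4 promoters (12.1% of all), and in 6 of these 9 it started at 45 or 46 bases before the gene start. This string was not limited to H4, with 7 of 18 H2A, 3 of 16 H2B and 1 of 10 H3 promoters. A TATA box was found in 35 of 62 member promoters (56.5%, against 12.6% of all), but at any position: of its 41 matches 17 started between 15 and 45 bases before the gene start, which gave 17 of 62 member promoters (27.4%) against 3.38% of all with one there. In base composition the members were poorer in G and C, with a median of 45.3% against 56.3%, and richer in CpG relative to their C and G content, with an observed over expected ratio of 0.740 against 0.567. At the 5 members without a region over the promoter in either list, the median of that ratio was 0.549. It was 0.450, 0.455 and 0.549 at Hist1h1t, Hist1h2ba and Hist1h2aa, and 0.726 and 0.875 at Hist1h2af and Hist1h3c. Low ratios also occurred at promoters with a region, such as 0.486 and 0.481 at Hist1h2ah and Hist1h2bk.

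**Figure D1:**
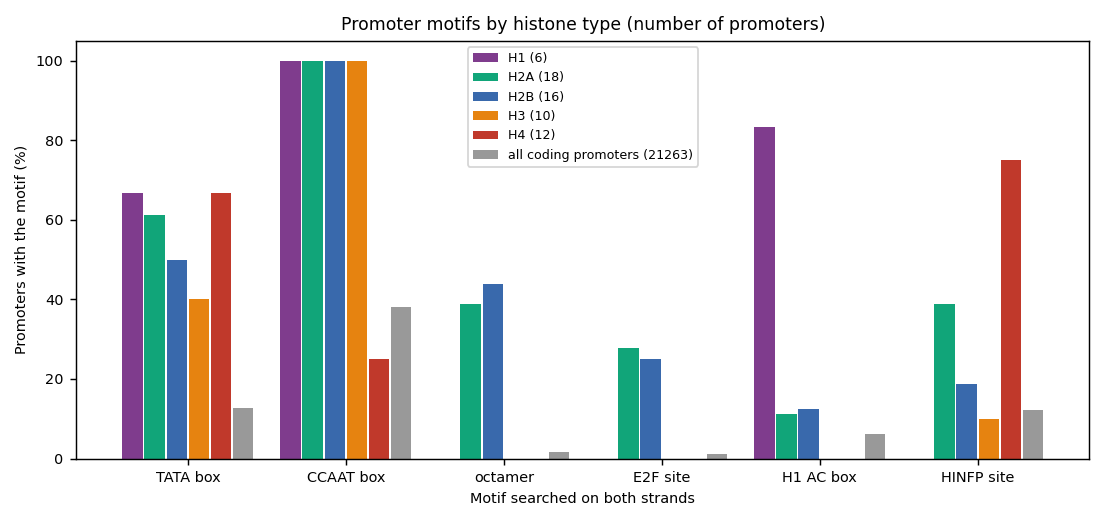
Share of promoters (%) that hold each motif on either strand, by histone type and for all coding promoters, with the number of promoters in parentheses. The CCAAT box is in every H1, H2A, H2B and H3 promoter and in 3 of 12 H4 promoters, the octamer and the E2F site are in H2A and H2B promoters alone among the members, and the AC box and the HINFP site are most frequent at H1 and H4.

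The same motifs were present in the promoters without an accessible region. In the printed sequence of Hist1h2ba the octamer, 4 CCAAT boxes and a TATA box are all found, and in Hist1h1t the AC box and the CCAAT box start 114 and 65 bases before the gene start, against 112 and 54 bases in the open Hist1h1c. Among H2A and H2B promoters with an accessible region, the median control percentile was 65.8 for the 12 with the octamer and 64.4 for the 19 without. For the E2F site it was 69.0 (8 promoters) against 64.4 (23 promoters). The ranges overlapped, from 2.71 to 99.4 with and from 7.54 to 76.7 without the octamer, and from 36.3 to 99.4 with and from 2.71 to 85.2 without the E2F site.

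The histone stem-loop was searched in the annotated transcripts, as 6 base pairs around a loop of 4 bases that starts with TT, within 120 bases of the stop codon. It was found in 44 of the 67 members, and in 44 of the 48 with at least 50 annotated bases after the stop codon, against 18 of 21786 other coding genes (0.0826%). Among those 18 was H2afx, the gene of the histone variant H2AX. The stem is in capitals and the loop in lower case in the 3 most frequent forms, which are shown because they differ by histone type.
Form of 26 H1, H2A, H2B and H3 genes: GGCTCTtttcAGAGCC
Form of 7 H4 genes: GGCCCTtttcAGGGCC
Form of 6 H1, H2B and H3 genes, with another loop: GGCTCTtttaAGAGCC
Of the 11 H4 genes with a stem-loop, 0 had a form found in members of the other types.

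Open chromatin was found at nearly every gene. With the gene and 1 kb to each side counted, 64 of 67 members had a region in the control list and the same 64 had one in the db/db list. Among all coding genes 66.4% were open by this rule in the control and 69.7% in the db/db list. The 3 without a region in either list were Hist1h1t, Hist1h2ba and Hist1h2aa, which encode the testis-specific histones H1t, TH2B and TH2A. Their nearest region lay 2064 bp (control) and 2095 bp (db/db) from the start codon of Hist1h1t, 6042 and 5980 bp from that of Hist1h2ba, and 5736 and 5674 bp from that of Hist1h2aa. Only 60 members in the control and 59 in the db/db list had a region in the 300 bp before the annotated 5′ end, against 51.4% and 53.8% of all coding genes. Because several genes have a 5′ end far from the coding sequence, the 300 bp before the start codon were used for the members below. There, 62 members had a region in the control and 61 in the db/db list.

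Of the 5 members without a region before the start codon, the remaining 2 were Hist1h2af and Hist1h3c, which were open only through regions elsewhere within 1 kb of the gene. At Hist1h2af (H2A) the nearest region was 1207 bp from the start codon in the control list, and at Hist1h3c (H3) it was 548 bp from the start codon. The member that differed between the lists was Hist1h1b, whose H1.5 promoter had a weak region in the control list and none in the db/db list.

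The members lie in 4 clusters. Hist1, on chromosome 13, holds 54 of them in 2 blocks, the first of 23 genes over 328 kb (chr13:21715763-22043676) and the second of 31 genes over 404 kb (chr13:23531050-23934851). Hist2 has 10 genes within 50.3 kb (chr3:96219865-96270132), Hist3 has 2 (chr11:58948920-58956830) and Hist4 has 1 (chr6:136801553-136804415). All 23 genes of the first Hist1 block, 28 of 31 of the second, and all 13 of Hist2, Hist3 and Hist4 were open in both lists. Between the first and the last Hist1 gene lie 49 other coding genes, of which 6 were open in the control and 8 in the db/db list, with a region within 1 kb of the 5′ end at 5 in each (Abt1, Btn2a2, Hfe, Zfp184 and Zfp322a). Most of these 49 lie between the blocks. Of the other coding genes inside a block, 1 of 3 in the first and 2 of 6 in the second were open in the control list, and 2 and 3 in the db/db list.

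The strength of these regions was moderate. In each list 58 regions lay at members, 32 of them at several members in the control list and 31 in the db/db list. Their signal had a median percentile of 46.7 in the control list (middle 50% from 24.2 to 67.3) and 61.1 in the db/db list (40.8 to 78.4). Regions within 1 kb of the 5′ end of other coding genes had medians of 75.2 and 76.9. Not all member regions lay at a promoter: those in the 300 bp before a start codon had medians of 54.6 and 64.5. Ranked by −log10 p instead of signal, the member regions stood higher, at medians of 77.9 and 79.5 against 81.8 and 82.9 for the other promoters. The percentile by −log10 p was above that by signal in 57 of 58 member regions in the control and 55 of 58 in the db/db list, and in 60.2% and 60.1% of the other promoter regions. In the control list this was so at low and high signal: among regions below percentile 50 by signal it was 31 of 31 members and 77.7% of other promoters, and above it 26 of 27 and 53.5%. Which property of the regions this rests on was not tested.

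**Figure D2:**
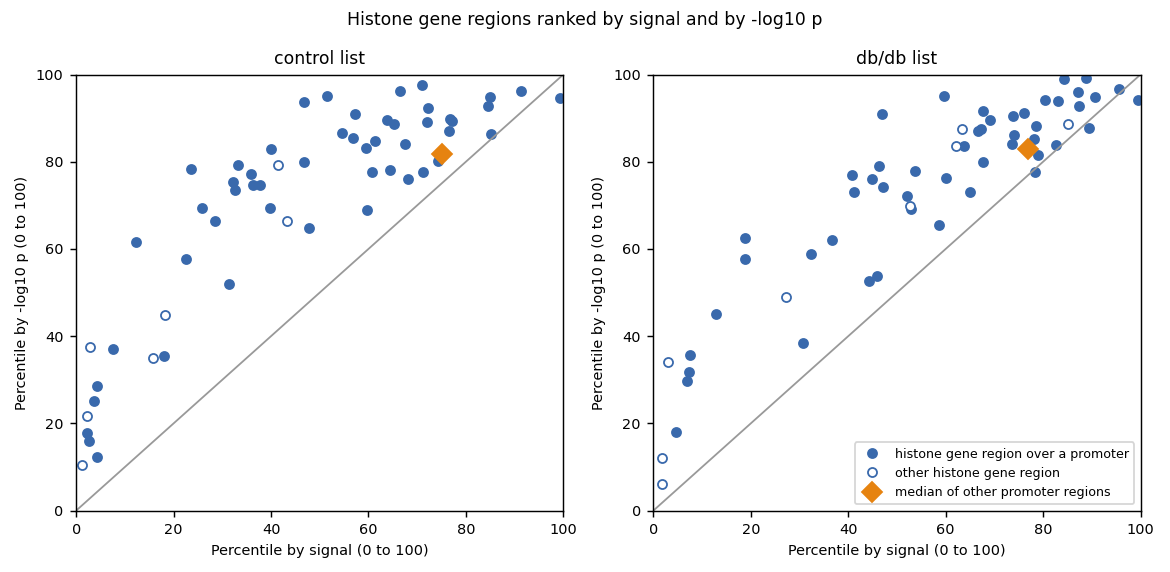
Percentile by −log10 p (0 to 100) plotted against percentile by signal (0 to 100) for the 58 histone gene regions of each list, with the median of other promoter regions and the line of equality. In the control list 57 points and in the db/db list 55 points lie above the line.

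By histone type, the median was highest at promoters of H2B and H2A genes and lowest at those of H3 genes. The median percentile of the promoter regions was 67.5 (control) and 76.1 (db/db) for 17 H2B genes. For 16 H2A genes it was 62.9 and 69.3, for 13 H4 genes 54.6 and 60.1, and for 11 H3 genes 25.9 and 44.8. The 5 H1 genes with a region had a median of 40.0 in the control list, and 4 had a median of 61.0 in the db/db list. Genes in a divergent pair had medians of 67.8 and 77.2, against 39.9 and 52.0 for those outside one, and paired genes share a region, so that these values count it once for each gene. The same shared regions enter both the H2A and the H2B medians. Outside a pair, H2A promoters with a region stood at control percentiles from 2.71 (Hist1h2ab) to 51.4 (Hist2h2aa1). Those of H2B stood at 32.2 (Hist1h2be) to 85.2 (Hist1h2bm). The types also differed in where the summit, the point of highest signal, lay before the start codon. Its median distance in the control list was 186.5 bp at H2A, 93 bp at H2B, 84 bp at H1, 66 bp at H3 and 38 bp at H4 genes.

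**Figure D3:**
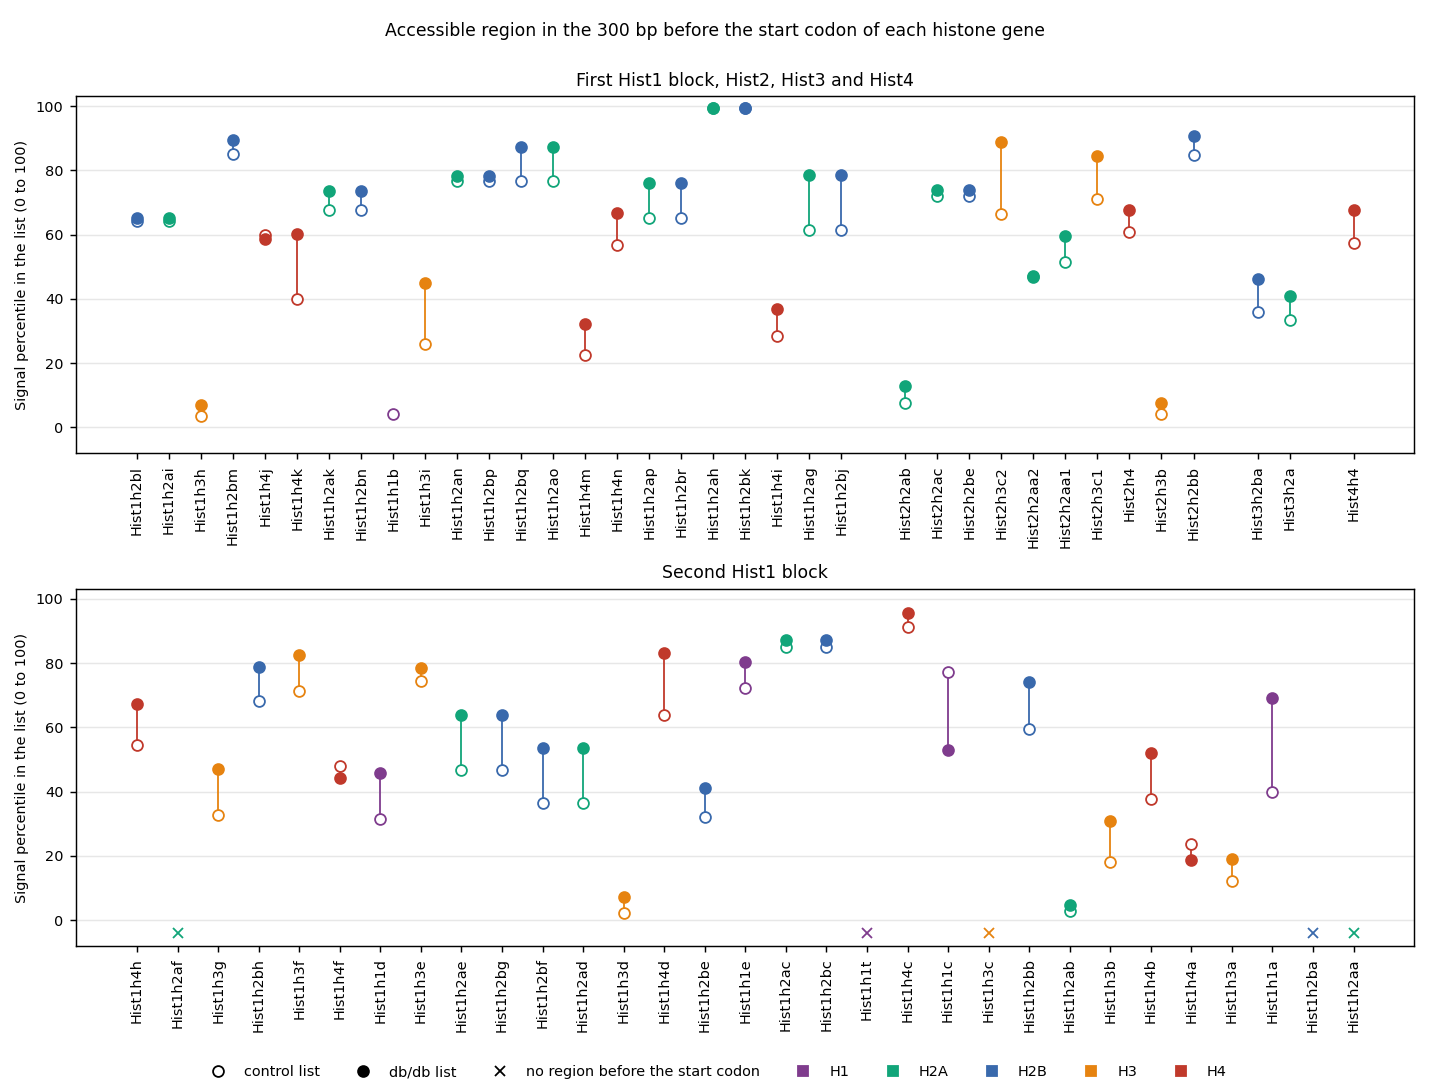
Percentile of the signal (0 to 100) of the region in the 300 bp before the start codon of each of the 67 genes, in chromosomal order, with open circles for the control list and filled circles for the db/db list, coloured by histone type. Crosses mark the 5 genes without such a region in either list, paired H2A and H2B genes carry the same values, and Hist1h1b has a control value alone.

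Head-to-head pairs were examined next. Among the members 13 pairs (26 genes) stand on opposite strands with 5′ ends at most 1 kb apart, 12 of them H2A with H2B and 1, Hist1h2bh with Hist1h3f, H2B with H3. One region covered both 5′ ends in 11 pairs in each list. Among all 1200 such pairs of coding genes the share was 83.2% in the control and 84% in the db/db list, so that 11 of 13 is near the background. The exceptions were Hist1h2ba with Hist1h2aa, which had no region, and Hist1h2bh with Hist1h3f, whose 5′ ends are 660 bp apart and which had a region each. In the 11 pairs the 5′ ends were 176 to 302 bp apart, and the regions were 516 to 1422 bp wide in the control and 535 to 1091 bp wide in the db/db list. All 11 summits lay between the 5′ ends in both lists. Measured to the 5′ ends, the summit was nearer the H2B gene in 7 of 11 pairs in the control list and in 8 in the db/db list, with the pair of Hist1h2ae and Hist1h2bg changing side. The median distance was 88 bp to the H2B and 184 bp to the H2A 5′ end in the control, and 76 and 184 bp in the db/db list. Measured to the start codons it was nearer the H2B gene in 8 of 11 pairs in both lists.

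**Figure D4:**
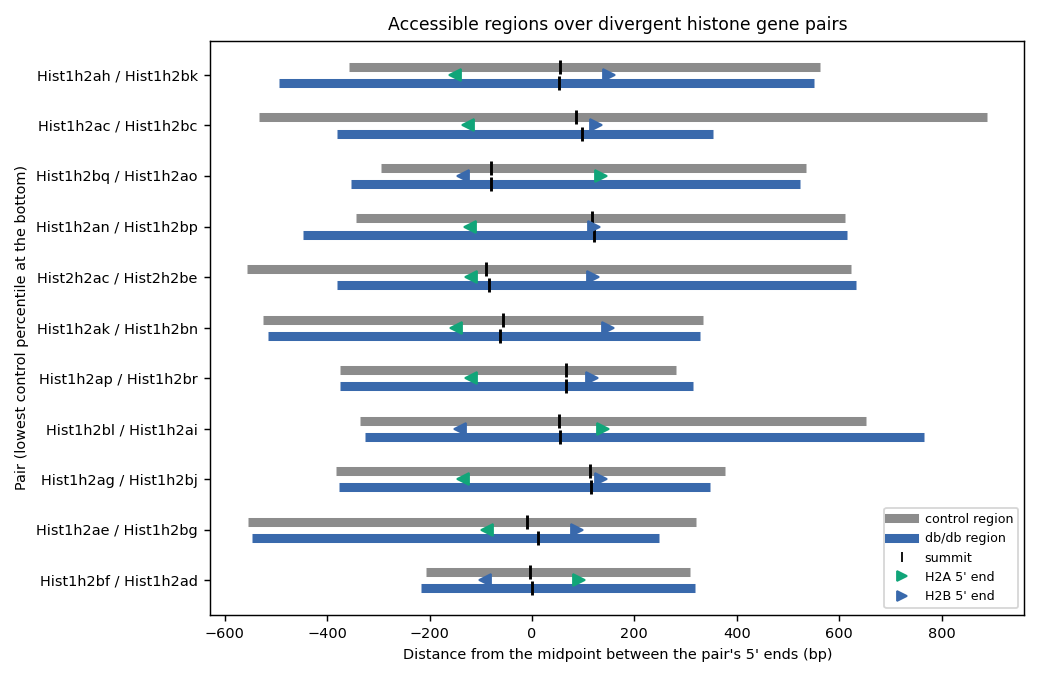
Extent of the region over each of the 11 covered pairs (bp from the midpoint between the 5′ ends), with grey bars for the control and blue bars for the db/db list, ticks for the summits and arrowheads for the 5′ ends of the H2A and H2B genes. Each bar spans both arrowheads, and the tick lies nearer the H2B arrowhead in 7 of 11 pairs for the control and 8 for the db/db list.

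The pairs covered a wide span of signal, from percentile 36.3 to 99.4 in the control list (median 67.5) and from 53.7 to 99.5 in the db/db list (median 76.1). Regions over both 5′ ends of other head-to-head pairs had medians of 84.2 and 86.6. The strongest was Hist1h2ah with Hist1h2bk, with a signal of 27.3 in the control and 25.6 in the db/db list, at percentiles 99.4 and 99.5. Its promoter, printed first above, was the only one of the 12 H2A and H2B pairs where the CCAAT box, the octamer and the E2F site were found together. However, only 1 promoter was matched in the pairs Hist1h2ac with Hist1h2bc and Hist2h2ac with Hist2h2be, which both hold the CCAAT box and the octamer. Next in percentile came Hist1h2ac with Hist1h2bc at 84.9 and 87.1 and Hist1h2bq with Hist1h2ao at 76.7 and 87.3. Lowest were Hist1h2bf with Hist1h2ad at 36.3 and 53.7, Hist1h2ae with Hist1h2bg at 46.7 and 63.9, and Hist1h2ag with Hist1h2bj at 61.4 and 78.6. All 6 of these pairs had a higher percentile in the db/db list, as did the median region found in both lists.

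The H1 genes, which encode the linker histones that bind where DNA enters and leaves the nucleosome, ranged from closed to well accessible. Hist1h1c (H1.2) had a control region of 1519 bp at percentile 77.2, with its summit 940 bp after the start codon. In the db/db list that region was split, and the part before the start codon stood at 52.9. Hist1h1e (H1.4) was at 72.2 and 80.4, and Hist1h1a (H1.1) at 40.0 and 69.0. Hist1h1d (H1.3) stood at 31.4 in the control list, and at 45.9 in the db/db list, where the summit of its region lay 1101 bp after the start codon. Hist1h1b was at 4.21 in the control list alone, and Hist1h1t had no region. The values of Hist1h1c, Hist1h1d and Hist1h1e cannot be compared directly between the lists, since their regions were cut differently.

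The H4 genes, most of which stand alone, were led by Hist1h4c at 91.2 and 95.7, with a signal of 19.2 and 19.7. Its promoter holds the HINFP string, found in 9 of 12 H4 promoters, and 2 CCAAT boxes. Only 2 other H4 promoters have a CCAAT box, and the control percentiles of these 3 ranged from 23.7 (Hist1h4a) to 91.2. For the 9 with the string they ranged from 22.5 (Hist1h4m) to 91.2. At the lower end stood Hist1h4m at 22.5 and 32.3 and Hist1h4a at 23.7 and 18.8. The strongest H3 promoters of Hist1 were Hist1h3e at 74.3 and 78.4 and Hist1h3f at 71.2 and 82.6. Several members had a region at the bottom of both lists: Hist1h3d stood at 2.28 and 7.28, Hist1h2ab at 2.71 and 4.72, and Hist1h3h at 3.63 and 6.91. Of the 58 member regions, 9 in the control and 7 in the db/db list were among the lowest 10% of their list, and 2 and 3 were among the highest 10%.

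In Hist2, all 10 genes had a region before the start codon. Hist2h2bb (H2B) was the strongest at 84.6 and 90.7. The pair Hist2h2ac and Hist2h2be stood at 72.0 and 73.8, and Hist2h4 (H4) at 60.7 and 67.7. Hist2h2ab (H2A) and Hist2h3b (H3) were weak, at 7.54 and 12.9 and at 4.16 and 7.47. The cluster also holds duplicated genes with the same coding sequence. Hist2h3c1 was at 71.1 and 84.4 and its copy Hist2h3c2 at 66.5 and 88.9, and Hist2h2aa1 was at 51.4 and 59.6 and its copy Hist2h2aa2 at 46.7 and 47.0. In Hist3, Hist3h2ba (H2B) was at 35.9 and 46.3 and Hist3h2a (H2A) at 33.3 and 40.7. Hist4h4 (H4), the one gene of Hist4, was at 57.3 and 67.6.

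Near-identical copies limit how far single genes can be told apart. In all, 10 members had a coding sequence identical to that of another member, and the median identity to the most similar coding sequence of the same length was 98.7%. Hist1h2bq and Hist1h2br had the same coding sequence and, over the 300 bases of the RefSeq window, the same promoter (100% identity), yet their regions stood at 76.7 and 65.2 in the control list and at 87.3 and 76.1 in the db/db list. How reads that fit several copies were placed is not given in the sources used here, so values at Hist1h2bq, Hist1h2br, Hist1h2ao, Hist1h2ap, Hist1h4m, Hist1h4n and the Hist2 copies are uncertain. All members without a region before the start codon had a coding sequence that differed from every other member's.

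Few member regions were found in 1 list only, in the control list at a share near that of all regions. Of the 58 member regions of the control list, 2 lacked a partner among the db/db regions (3.45%, with a Wilson interval at 95% from 0.951% to 11.7%, for counting error only), against 4.16% of all control regions. They were the promoter region of Hist1h1b (chr13:21780191-21780776, percentile 4.21) and one near Hist1h4c (chr13:23699050-23699292, percentile 1.21). In the db/db list 1 of 58 was found there alone (1.72%, 0.305% to 9.14%), against 31.3% of all db/db regions. It lay at Hist1h4m (chr13:21812033-21812416, percentile 1.81). All 3 stood in the lowest 10% of their list. Outside the lowest 10%, 27.1% of all db/db regions and 0 of 51 member regions were found in the db/db list alone. Of the promoter regions of other coding genes, 8.12% were found in the db/db list alone and 1.03% in the control list alone. Both values lie inside the intervals of the member shares.

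Ranks of shared regions differed in both directions. At 52 members' regions that overlapped exactly 1 region of the other list, the percentile was higher in the db/db list by a median of 8.59 points, but over all 43519 such regions the median was 8.53 points. When both lists were ranked over these 43519 regions alone, the median difference (db/db minus control) of the members was -0.91 points, with an SD across the 52 regions of 7.40. By this rank 19 of 52 member regions (36.5%) stood higher in the db/db list, against 50.7% of all regions and 39.2% of the promoters of other coding genes, whose median was -1.08. The sets differ in where they rank, however, and the shares differed at low rank: in the lower 50% of the control rank 7 of 28 member regions (25.0%) stood higher, against 54.0% of other promoters and 56.9% of all regions (medians -1.53, 0.44 and 1.07 points). In the upper 50% it was 12 of 24 (50.0%), against 33.6% and 44.5%. Over all regions the median was 0.0873 and the SD 10.6, so that the differences at the members were no wider than elsewhere.

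Single regions differed by more than that. The largest rises were at Hist2h3c2, from rank 65.0 to 83.6 (18.6 points), Hist1h1a, from 37.8 to 55.6 (17.8 points), and Hist1h4d, from 62.2 to 75.2 (12.99 points). The shared promoter of Hist1h2ag and Hist1h2bj followed with 9.21 points. The largest falls were at Hist1h4f, from 45.7 to 27.0 (-18.8 points), Hist1h4j, from 58.0 to 42.3 (-15.7 points), Hist2h2aa2, from 44.5 to 29.6 (-14.9 points), and Hist1h4a, from 21.7 to 8.15 (-13.6 points). The shared promoter of Hist1h2bl and Hist1h2ai changed by -12.3 points. Both directions occurred within a type: of 13 H4 promoters 4 stood higher and of 11 H3 promoters 5 did. Of 16 H2A promoters 5 stood higher, and of 17 H2B promoters 8. With 1 list per genotype none of these differences can be set against the spread between replicates.

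**Figure D5:**
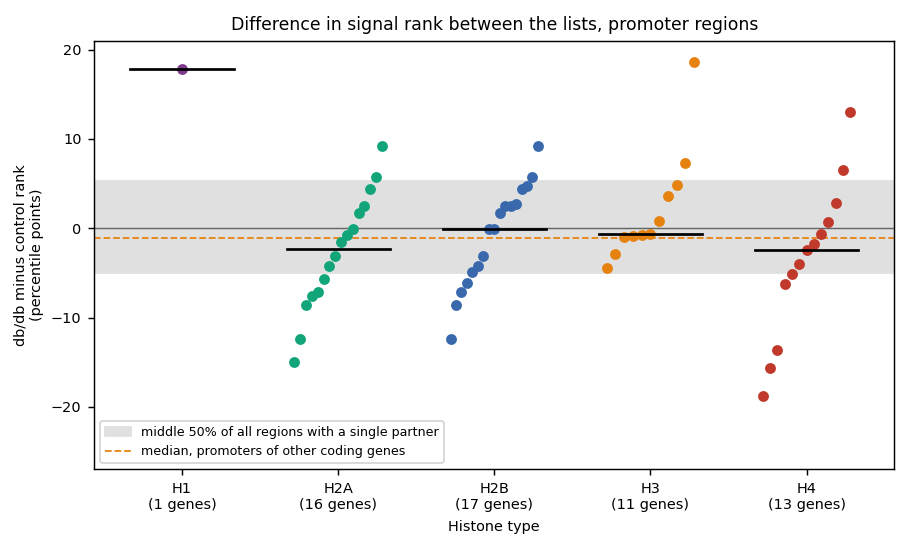
Difference in rank (db/db minus control, in percentile points, ranked over the 43519 regions with a single partner) at the promoter of each member, by histone type. Points are genes, black bars medians, the grey band the middle 50% of all regions and the dashed line the median of other promoters, and points lie on both sides of 0 in H2A, H2B, H3 and H4.

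Other genes of histone supply were open almost without exception, against 66.4% of all coding genes in the control and 69.7% in the db/db list. Of 12 genes for the processing of histone transcripts, all were open in both lists, with a median percentile of 90.01 and 93.9 at the 5′ end. They included Slbp at 93.5 and 93.9 and Npat at 96.3 and 97.5, while Zfp473 had no region at the 5′ end in either list. All 12 histone chaperone genes were open too, with medians of 91.1 and 92.6, among them Chaf1b, a subunit of the chromatin assembly factor, at 99.0 and 99.3. Lowest of these 12 was Chaf1a at 39.2 and 49.4. For 16 genes of S phase, such as Mcm3 and Pcna, the medians were 90.4 and 91.0, again with all open. The 6 genes of a proliferation list had medians of 96.7 and 96.9, though Aurkb stood at 22.6 and 44.3. Genes on a list of replication-independent histones lay closer to the members, with medians of 62.9 and 67.4. Of these 11 genes, 10 were open in the control and 11 in the db/db list. Among these were H3f3a (H3.3) at 67.9 and 69.1, H2afz (H2A.Z) at 53.4 and 65.6 and H2afx at 87.5 and 96.2. H2afx also had the histone stem-loop, as given above. H3f3b had no region at the 5′ end in either list. The members had medians of 59.7 and 67.3 over the genes with a region in the 300 bp before the start codon. For the other lists a region within 1 kb of the 5′ end was used, so the windows differ. With these windows the members stood below the genes of their own processing machinery in both lists. They stood near the genes listed as replication-independent histones.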

How the data were processed

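ATAC-seq of Müller cells was analysed from 1 deposited list of accessible regions per genotype, in the narrowPeak format. The deposited columns are a score, the signal (a ratio, or fold enrichment over background), and −log10 of the p-value and of the q-value, as the authors computed them. The submitters' processing notes give mm10. The peak caller, its threshold, the treatment of reads with several matches and whether replicates were pooled are not given in the sources used here, and neither is the depth, so the values were compared as ranks within a list. Replicate 2 of each genotype and the RNA-seq samples were not analysed here.

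With Python 3.11.15, numpy 2.4.6 and pandas 2.3.3, overlapping rows on chromosomes 1 to 19, X and Y were merged, keeping the values of the strongest row by signal (81757 rows in the control and 109995 in the db/db list). Regions were shared when they overlapped by at least 1 bp. Genes came from GENCODE M21, promoters from RefSeq, and figures were drawn with matplotlib 3.10.9. The steps were tested on simulated lists. The members and lists were chosen with earlier results of these data known. Named were all H1, Hist2, Hist3 and Hist4 genes, the 3 strongest and 3 weakest pairs, the strongest gene of each type, genes open in 1 list or none, and the 5 largest rises and falls in rank. Other genes given with values (Hist1h3d, Hist1h2ab, Hist1h3h, Hist1h4m, Hist1h3f, copies and genes of the other lists) were singled out after their values were seen. Alternatives were a −log10 q of at least 5, 50% overlap, lists of equal numbers, rank by −log10 p, no flank, a flank of 5 kb, 1 kb around the 5′ end, no merging and pairs within 500 bp.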

Additional observations from a re-analysis of the deposited data

How the results depend on the processing

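The rank among regions with a single partner and the lists without Hist1h2be, whose annotated gene spans other members, were added after seeing the data. In all 66 values were recomputed, of which 61 were near the reported one, 3 moved away and 2 changed sign. The numbers of open members (61 in each list with no flank to 65 with a flank of 5 kb) and of pairs covered by 1 region (11 throughout) were within 1.5 times the reported ones under every alternative tried for them. The shares found in 1 list rest on few regions: the control-only share was 6.90% with lists of equal numbers and 1.85% with no flank, and the db/db-only share 4.48% with a flank of 5 kb and 0.893% with rows not merged, all inside the interval of the reported share. The median difference in percentile of shared member regions changed sign to -3.24 with lists of equal numbers and to -0.907 when ranked among regions with a single partner, and it was 1.63 by −log10 p. The cause of the 1.63 was not tested, while lists of equal numbers and ranking over the same regions remove the difference in list length by construction. By −log10 p the control median was 77.9. The db/db-only share with lists of equal numbers was 0%, from 55 regions, since weak db/db regions are removed. No paired analysis was possible because a single list of each genotype was analysed and no test was run. With 1 list per genotype, neither the 3 regions found in 1 list nor any difference in rank has a replicate check, and depth was not analysed.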
